A study of Mus musculus with 6 samples.

Results

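Microvillar cells of the mouse main olfactory epithelium (MOE) were collected here as 2 types, ionocyte-like cells marked by Ascl3 and Cftr, and brush-like cells marked by Trpm5. Members were chosen by their own UMIs (unique molecular identifiers, each standing for a captured RNA molecule). In 6 single-cell libraries a barcode counted as a kept cell from 1000 UMIs and 500 genes upward. Kept cells with at least 10 Omp, 5 Gap43 or 10 summed Cyp2g1 and Sec14l3 UMIs were set aside. A remaining cell was ionocyte-like with at least 2 summed Ascl3 and Cftr UMIs and brush-like with at least 2 Trpm5 UMIs. This gave 549 members of 24830 kept cells, of which 488 were ionocyte-like, 60 brush-like and 1 met both rules. The cell that met both rules, from swap 2, was left out of the comparison of the types.

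Microvillar cells are non-neuronal cells at the apical surface of the olfactory epithelium, named for the stiff microvilli on their surface. Ionocytes are rare epithelial cells that set the salt and acid content of the surface fluid, and depend on the forkhead factor Foxi1. Brush cells, also called tuft cells, sense chemicals through a taste-like cascade that ends in the cation channel Trpm5, depend on Pou2f3, and signal to immune cells and nerves. Sustentacular cells, the supporting cells of the same surface, are rich in cytochromes and other detoxifying enzymes and served as the reference class. On the mouse GRCm38 assembly Ascl3 lies at chr7:109727465-109731726, Cftr at chr6:18170687-18322768, Trpm5 at chr7:143069153-143094642, Foxi1 at chr11:34204338-34208089 and Pou2f3 at chr9:43123939-43210369, by GENCODE annotation.

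The study asked how HP1 proteins bear on olfactory receptor choice, and its libraries were made from dissociated MOE cells, sorted according to the series' description, with no gate given. Swap mice (2 libraries, Cbx*/* with a Cre driver) carry engineered Cbx1 alleles from which Cre removes Cbx1, the gene of heterochromatin protein HP1β, and turns on a Cbx5 coding sequence, that of HP1α. Control 1 was labelled WT with the same Cre driver, and control 2 carried Cbx*/* without Cre, so the controls differ in both Cre and allele. The tetOP2 library (gg8-tTA; tetOP2iresGFP) came from mice in which a tTA transgene of olfactory neurons drives 1 receptor, and the gg8tTA library carried gg8-tTA alone, with 1 library each and hence no test. The study describes the Cre driver as neuronal, and the labels give the cell type as olfactory sensory neuron, yet 3696 kept cells passed the sustentacular gate (at least 10 summed Cyp2g1 and Sec14l3 UMIs, none of the member or neuron rules). In ionocyte-like cells Xist stood at 2581, 2154 and 1919 CPM in tetOP2, gg8tTA and swap 1 and at most 1.14 CPM elsewhere, while Ddx3y, a Y-linked gene, was at 0 in those 3 libraries and 76.3 to 101 CPM in swap 2, control 1 and control 2. The swap libraries were thus of different sex, and both controls male. No age is labelled.

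Kept cells held a median of 9991 to 11543 UMIs per library. Ionocyte-like cells held a median of 9322.5 UMIs and 3207.5 genes, brush-like cells 6999.5 UMIs and 2661 genes, and sustentacular cells 14157.5 UMIs and 3934 genes. Summed over cells, the ionocyte-like class had 370822 to 1756021 UMIs per library and the brush-like class 26078 to 162343. Levels are given as CPM, the count of a gene scaled to a fixed total within each sum. A single UMI was worth 6.16 to 38.3 CPM in a brush-like sum, against 0.569 to 2.7 CPM in an ionocyte-like sum. No kept cell of tetOP2 or gg8tTA had under 3638 UMIs, while the other 4 libraries reached down to 1000. Any pair of libraries shared 0 to 20 cell barcodes.

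Promoters of the marker and V-ATPase lists were read for the core letters of the forkhead family (GTAAACA) and of the POU octamer (ATGCAAAT). Both strands of the 250 bases before each RefSeq start were read. These letters were chosen because ionocytes depend on Foxi1 and brush cells on Pou2f3. Of 32851 mouse promoters, 3.17% held the forkhead letters and 1.6% the octamer. The ionocyte list (18 promoters) had 1 with each, the brush list (20 promoters) 0 and 1, and the V-ATPase list (24 promoters) 1 and 1. The 5 windows are shown 5′ to 3′ on the strand of the gene, with the letters, or their reverse complement, in capitals (RefSeq, GRCm38.p6).
P2ry14, forkhead, minus strand, chr3:59131295-59131351: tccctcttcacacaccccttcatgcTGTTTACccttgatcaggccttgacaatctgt
Atp6v1b1, forkhead, plus strand, chr6:83742894-83742950: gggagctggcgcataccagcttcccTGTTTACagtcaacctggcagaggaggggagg
Itpr3, octamer, plus strand, chr17:27057252-27057303: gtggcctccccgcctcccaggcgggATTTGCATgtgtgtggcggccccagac
Sucnr1, octamer, plus strand, chr3:60081796-60081853: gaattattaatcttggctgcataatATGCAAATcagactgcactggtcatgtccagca
Atp6v1c2, octamer, minus strand, chr12:17324771-17324828: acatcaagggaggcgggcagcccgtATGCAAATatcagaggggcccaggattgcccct
P2ry14 and Itpr3 were higher in ionocyte-like cells than in brush-like cells, Atp6v1b1 was 25 CPM in ionocyte-like and 97 CPM in sustentacular cells, and Sucnr1 had no UMI in any of the 3 classes.

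The members were checked against markers that the rule did not use. Ionocyte-like cells had a UMI for a median of 8 of 13 other ionocyte markers, 418 of 488 (85.7%) had at least 5, and 19 had under 2. Brush-like cells had a median of 12 of 20 other brush markers, and all 60 had at least 2. Foxi1 had a UMI in 86.5% of ionocyte-like, 6.67% of brush-like and 0.839% of sustentacular cells. Avil, an actin-binding protein of tuft cells, had a UMI in 95% of brush-like, 2.05% of ionocyte-like and 0.622% of sustentacular cells, the last being the deepest class. Both types thus carried the markers of their names.

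The values that chose the members are given as a description. Members met the first rule with 2 to 82 Ascl3 and Cftr UMIs (median 22), and the second with 2 to 14 Trpm5 UMIs (median 5). Just inside the first rule, 39 cells with exactly 2 UMIs had a median of 2 other ionocyte markers, and 242 cells just outside with 1 UMI had a median of 1. Just inside the second, 11 cells with 2 Trpm5 UMIs had a median of 12 other brush markers, and 50 cells with 1 had a median of 3. The minimum was also met by 162 cells (Ascl3 and Cftr) and 46 cells (Trpm5) that the neuron and sustentacular limits set aside. Of 5985 neurons with at least 10 Omp UMIs (median 12262 UMIs), 0.251% reached the Ascl3 and Cftr minimum and 0.0167% the Trpm5 minimum, against 4.25% and 0.531% of the 11496 cells that passed the limits (median 7450.5 UMIs). For cells with 10 or more Cyp2g1 and Sec14l3 UMIs these shares were 3.09% and 0.806%.

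Ionocyte-like cells were not uniform. Of the 488, 411 had UMIs of both Ascl3 and Cftr, 28 of Ascl3 alone and 49 of Cftr alone. Foxi1 was detected in 94.3% of the 439 cells with Ascl3 and in 16.3% of the 49 without it and Stap1 in 93.8% and 14.3%. The 49 cells had instead Fxyd3 in 67.3% (8.88% of cells with Ascl3), Sox9 in 71.4% (24.1%), the mucin gene Muc5b in 26.5% (1.82%) and the secreted lectin gene Reg3g in 55.1% (19.8%). They were deeper, with a median of 16828 UMIs against 9149. They made up 19.6% of ionocyte-like cells in control 1, 16% in swap 1, 9.38% in gg8tTA, 6.11% in swap 2, 2.63% in control 2 and 2.56% in tetOP2. Whether these cells are ionocytes was not tested.

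**Figure D1:**
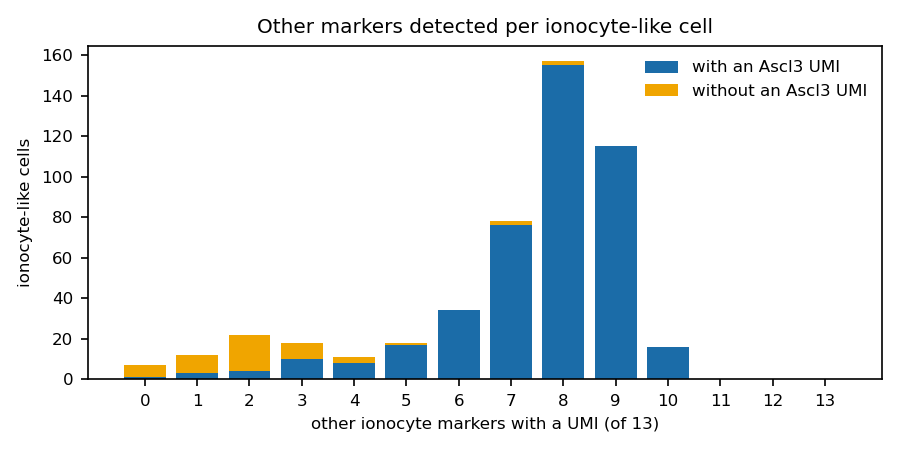
Stacked bars give the number of ionocyte-like cells (vertical axis) by how many of 13 other ionocyte markers had a UMI (horizontal axis), with and without an Ascl3 UMI. Most of the 439 cells with Ascl3 lie at 6 to 10 markers, and most of the 49 without it at 0 to 3.

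Ionocyte-like cells made up 1.52% of kept cells in tetOP2 (95% Clopper-Pearson interval 1.08 to 2.07), 2.29% in gg8tTA (1.77 to 2.92), 1.62% in swap 1 (1.29 to 2.01), 2.65% in swap 2 (2.22 to 3.13), 1.91% in control 1 (1.55 to 2.32) and 1.71% in control 2 (1.35 to 2.14). The controls lay between the swap libraries. Brush-like cells made up 0.312% in tetOP2 (0.135 to 0.614), 0.143% in gg8tTA (0.039 to 0.366), 0.16% in swap 1 (0.0691 to 0.315), 0.263% in swap 2 (0.14 to 0.449), 0.137% in control 1 (0.0553 to 0.283) and 0.451% in control 2 (0.276 to 0.696). Here the swap libraries lay between the controls at full depth, while swap 1 lay below both after the thinning described below. The intervals cover counting error only. With each cell thinned to 3000 UMIs, and 0, 0, 711, 888, 720 and 795 shallower cells of the libraries in this order left out, the ionocyte-like shares were 1.33, 2.04, 1.44, 2.98, 1.72 and 1.87%, and the brush-like shares 0.156, 0.107, 0.0699, 0.246, 0.137 and 0.412%.

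The mean share of ionocyte-like cells was 2.13% ± 0.728 (SD, n = 2) in swap and 1.81% ± 0.135 (SD, n = 2) in control, with an exact two-sided permutation p = 1. For brush-like cells it was 0.211% ± 0.0727 and 0.294% ± 0.222 (SD, n = 2 each), exact permutation p = 1. With 2 libraries a group the smallest p is 0.33, so the design could not reach significance. The difference in ionocyte-like share, 0.324 percentage points, turned to -0.191 without swap 2, and that in brush-like share, -0.083, turned to 0.0738 without control 2. There were 3.8 to 16 ionocyte-like cells for each brush-like cell, the lowest ratio in control 2 and the highest in gg8tTA, and a share of cells cannot tell fewer cells from fewer UMIs per cell.

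**Figure D2:**
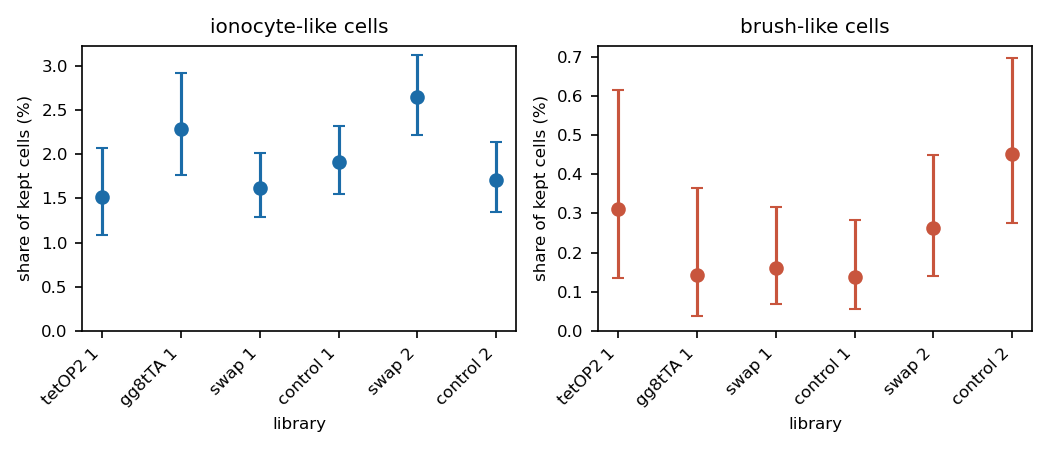
Points give the share of kept cells (vertical axis, percent) in each library (horizontal axis) for ionocyte-like cells (left) and brush-like cells (right), with 95% Clopper-Pearson bars. Swap and control libraries overlap in both.

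Set against each other, the types differed at 1390 of 11466 tested genes (edgeR quasi-likelihood test on library sums with library as a block, adjusted p below 0.05 and absolute log2 fold change over 0.58). Ionocyte-like cells were higher at 779 genes (6.79%) and lower at 611 (5.33%), while DESeq2 gave 581 higher and 756 lower, so that the split between the directions depended on the tool. Brush-like sums of at least 10 cells existed in swap 2 and control 2 alone, and without swap 2 the count was 745 and without control 2 578, with the lone brush-like sum then assumed to vary like the other classes. The 7 genes of the rule were not tested.

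The ionocyte factors came first. Foxi1 had a lowest, median and highest library level of 317, 584 and 793 CPM in ionocyte-like cells and 0 to 64.3 CPM in brush-like cells, with no overlap between libraries (log2 fold change 4.76 ± 0.53 SE, adjusted p = 0.000183). Tfcp2l1, a transcription factor of ion-transporting epithelia, had a lowest, median and highest library level of 367, 472 and 593 CPM against 0 to 80.1 CPM (log2 fold change 3.14 ± 0.39 SE, adjusted p = 0.000339). Stap1, a signalling adaptor, lay at 355 to 2122 CPM and 0 to 150.1 CPM (log2 fold change 5.85 ± 0.63 SE, adjusted p = 0.000148). Coch, which encodes the secreted protein cochlin, reached a lowest, median and highest library level of 4481, 6545 and 14292 CPM and at most 38.3 CPM in brush-like cells (adjusted p = 0.000102). In each of these genes every ionocyte-like sum lay above every brush-like sum.

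P2ry14, a receptor for UDP-sugars, had a lowest, median and highest library level of 215, 254 and 358 CPM in ionocyte-like cells and no UMI in brush-like cells, so that it was at least 43-fold higher (against a floor of 3 counts over all brush-like cells, adjusted p = 3.66e-05). Moxd1, a monooxygenase-like gene, lay at 652 to 1046 CPM and 0 to 23.9 CPM (log2 fold change 7.09 ± 0.52 SE, adjusted p = 1.15e-05). Of 11 tested ionocyte list genes, 8 were higher in ionocyte-like cells and none lower, against 6.79% and 5.33% of all tested genes. The median log2 fold change was 5.85 (3.86 with bounds) against 0.18 over all tested genes. Bounds here replace fitted values of genes without UMIs in a class, leaving out genes at or under the floor in both. The exceptions were Hepacam2, Parm1 and Npy. Hepacam2, an adhesion protein, was common to both types at 338 to 702 CPM in ionocyte-like and 174 to 729 CPM in brush-like cells (log2 fold change 0.78 ± 0.33 SE, adjusted p = 0.177), and 0.112 to 1.08 CPM in sustentacular cells. Npy, a neuropeptide listed for microvillar cells, was near 0 in both types (0.704 CPM and 1.93 CPM), and Asgr1 lost its call without control 2 (adjusted p = 0.0983).

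Brush-like cells carried the tuft cell genes. Pou2f3 had a lowest, median and highest library level of 85.8, 121 and 154 CPM in brush-like cells and 0 to 14.9 CPM in ionocyte-like cells (log2 fold change -4.13 ± 0.69 SE, adjusted p = 0.00244, ionocyte-like minus brush-like). Avil lay at 379 to 869 CPM and 0 to 8.01 CPM (log2 fold change -7.59 ± 0.38 SE, adjusted p = 2.1e-06), and Spib, an ETS factor, at 92.2 to 515 CPM and 0 to 25.2 CPM (log2 fold change -5.08 ± 1.07 SE, adjusted p = 0.0092). The homeobox gene Hmx2 lay at 61.4 to 708 CPM and 4.56 to 21.6 CPM (log2 fold change -4.04 ± 0.59 SE, adjusted p = 0.000986). Lrmp, a membrane protein also known from taste cells, lay at 1351 to 2858 CPM and 0 to 9.15 CPM (log2 fold change -10.10 ± 0.66 SE, adjusted p = 5.08e-06). All of these brush-like sums exceeded all ionocyte-like sums.

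The brush list showed 15 of 17 tested genes higher in brush-like cells and none lower, against 5.33% and 6.79% of all tested genes. The median log2 fold change was -5.08 against 0.18 over all tested genes. Dclk1, a kinase used as a tuft cell marker in gut, did not pass, at 0 to 297 CPM in brush-like, 11.5 to 194 CPM in ionocyte-like and 62.9 to 114 CPM in sustentacular cells. Gfi1b was the other (log2 fold change -3.17 ± 1.01 SE, adjusted p = 0.0684). Vav1, a signalling gene also known from blood cells, had a UMI in 78.3% of brush-like and 0.568% of sustentacular cells. Leaving out swap 2 or control 2 leaves 1 brush-like sum. Without swap 2 the calls of Pou2f3 (adjusted p = 0.064), Spib (0.0548) and Rgs13 (0.0795) were lost, with log2 fold changes of -3.99, -4.73 and -3.04. The calls of Hmx3, Plcb2 and Cd300lf were lost without swap 2 and also without control 2 (adjusted p = 0.0791, 0.0702 and 0.112 without swap 2, and 0.106, 0.0631 and 0.135 without control 2).

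**Figure D3:**
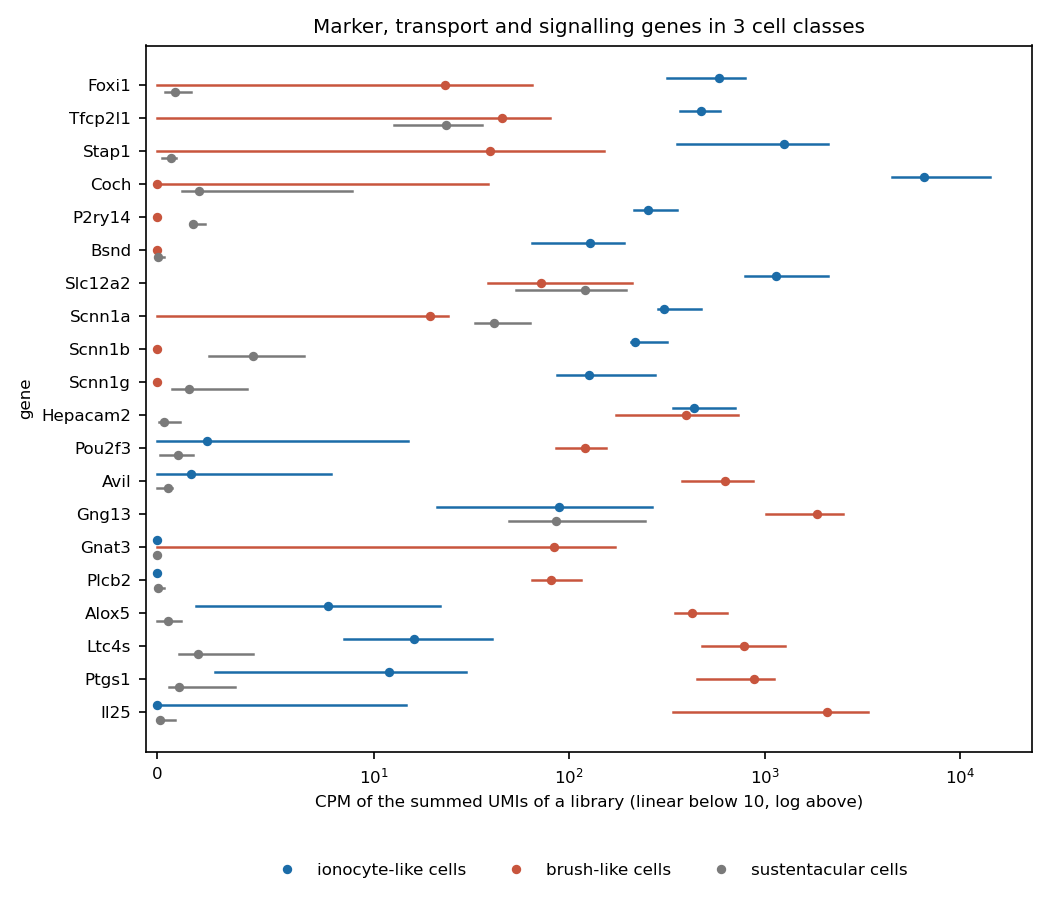
For 20 genes (vertical axis) the dot gives the median and the line the lowest to highest library level in CPM (horizontal axis, linear below 10 and logarithmic above) in 3 cell classes over 6 libraries. Genes from Foxi1 to Scnn1g sit to the right in ionocyte-like cells, genes from Pou2f3 to Il25 in brush-like cells, and Hepacam2 is shared.

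Some ion transport genes were higher in ionocyte-like cells. Cftr is a chloride channel and was part of the rule. Bsnd, barttin, an accessory subunit of chloride channels, had a lowest, median and highest library level of 64.2, 128 and 190.1 CPM and no brush-like UMI (at least 19.3-fold higher, adjusted p = 0.00201). Slc12a2, the sodium-potassium-chloride cotransporter that loads cells with chloride, had a lowest, median and highest library level of 793, 1149 and 2114 CPM in ionocyte-like, 38.3 to 209 CPM in brush-like and 53.6 to 196 CPM in sustentacular cells (log2 fold change 3.98 ± 0.29 SE, adjusted p = 1.12e-05 between the types). Of 14 tested chloride and bicarbonate genes 3 were higher and 1, the bicarbonate transporter Slc4a7, lower, against 6.79% and 5.33% of all tested genes. Their median log2 fold change was 4.11 (1.00 with bounds) against 0.18 over all tested genes. Against sustentacular cells 5 of the 14 were higher and 3 lower in ionocyte-like cells, where 16% of all tested genes were higher and 18.6% lower (median -0.09 against -0.02 over all tested genes). Slc4a7 kept 45.8 to 173 CPM in ionocyte-like against 71.7 to 369.6 CPM in brush-like cells (log2 fold change -1.16 ± 0.21 SE, adjusted p = 0.00355), a call lost without control 2 (adjusted p = 0.0898). Slc26a4, the exchanger of other ionocyte kinds, stood at 3.69 CPM and was not tested.

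All 3 genes of the epithelial sodium channel were higher in ionocyte-like cells. Scnn1a had a lowest, median and highest library level of 284, 307 and 470.1 CPM against 0 to 23.9 CPM in brush-like and 32.8 to 63 CPM in sustentacular cells (log2 fold change 4.88 ± 0.30 SE, adjusted p = 3.21e-06 between the types). Scnn1b (207 to 316 CPM) and Scnn1g (86.3 to 276 CPM) had no brush-like UMI and were at least 45.2-fold and 27.3-fold higher (adjusted p = 5.36e-05 and 0.00208). The sodium pump gene Atp1b1 (log2 fold change 3.14 ± 0.29 SE, adjusted p = 6.01e-05) and the potassium channel gene Kcnma1 (log2 fold change 2.20 ± 0.19 SE, adjusted p = 3.67e-05) were also higher. Of 18 tested sodium and potassium genes 6 were higher and none lower, against 6.79% and 5.33% of all tested genes. Their median was 3.67 (2.00 with bounds) against 0.18 over all tested genes. Against sustentacular cells 10 were higher and 4 lower, where 16% of all tested genes were higher and 18.6% lower (median 0.81 against -0.02). Sgk1, a kinase that acts on sodium channels, had a lowest, median and highest library level of 349.7, 432 and 505 CPM in ionocyte-like and 0 to 47.8 CPM in brush-like cells (log2 fold change 6.30 ± 0.34 SE, adjusted p = 1.26e-06).

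The V-ATPase, the proton pump that acidifies compartments and, in some ionocytes, the outside, was assessed over 26 measured genes. Their summed level was 4887 to 5690.1 CPM in ionocyte-like, 1932 to 3388 CPM in brush-like and 2811 to 3351 CPM in sustentacular sums, with no overlap of ionocyte-like sums with either. Of 23 tested genes, 9 were higher in ionocyte-like than in brush-like cells and none lower, against 6.79% and 5.33% of all tested genes. Their median log2 fold change was 1.06 (0.91 with bounds) against 0.18 over all tested genes. Atp6v0d2, a subunit of the membrane part, had a lowest, median and highest library level of 145, 198 and 289 CPM in ionocyte-like cells and a UMI in 1.67% of brush-like and 0.135% of sustentacular cells (adjusted p = 0.000204 and 3.17e-09). Atp6v1a, the catalytic subunit, lay at 367 to 602 CPM against 0 to 143 CPM (log2 fold change 2.61 ± 0.19 SE, adjusted p = 1.27e-05), and Atp6v0b at 805 to 1135 CPM against 181 to 772 CPM (log2 fold change 1.99 ± 0.18 SE, adjusted p = 5.36e-05).

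Against sustentacular cells 11 of the 23 genes were higher in ionocyte-like cells and 3 lower, with a median of 0.53 against -0.02 over all tested genes. Of all tested genes 16% were higher and 18.6% lower in this comparison. The 3 were Atp6v0a4 (8.01 to 26.5 CPM against 148 to 267 CPM, log2 fold change -3.81 ± 0.28 SE, adjusted p = 9.66e-07), Atp6v1b1 (12.6 to 73.1 CPM against 59.4 to 134 CPM, log2 fold change -1.94 ± 0.30 SE, adjusted p = 0.000492) and Atp6v1c2 (log2 fold change -0.93 ± 0.12 SE, adjusted p = 7.71e-05). Without swap 2 or control 2 the ionocyte-like against brush-like call of Atp6v1e1 was lost, as was that of Atp6v1h without control 2. The call of Atp6v0e was lost without swap 2 and under another alternative, with log2 fold changes of 0.61 to 1.18 over all alternatives. Atp6v0c, the ring subunit, was at 1.76 CPM with a processed copy, Atp6v0c-ps2, at 8.44 CPM, and the reads of such copies may be split or dropped.

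**Figure D4:**
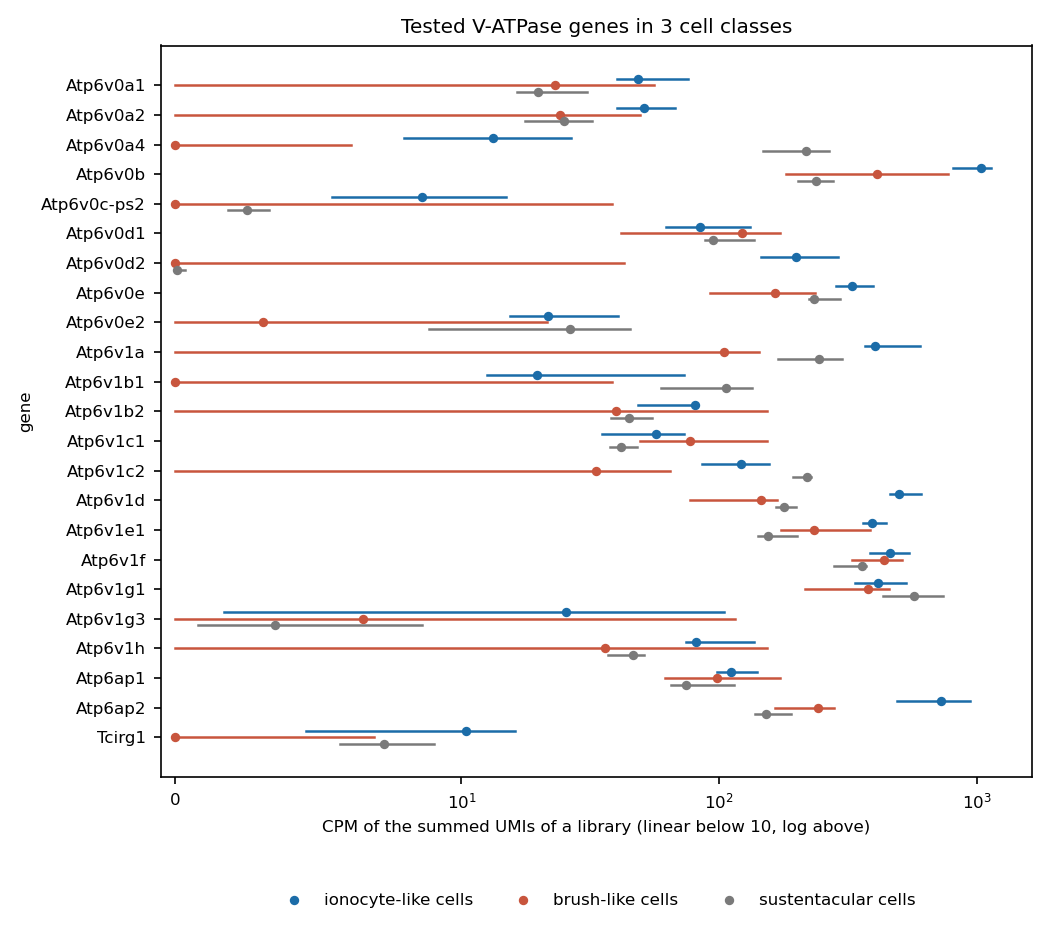
For the 23 tested V-ATPase genes (vertical axis) the dot gives the median and the line the lowest to highest library level in CPM (horizontal axis, linear below 10 and logarithmic above) in 3 cell classes. Atp6v0d2, Atp6v0b, Atp6v1d and Atp6ap2 lie to the right in ionocyte-like cells, while Atp6v0a4 and Atp6v1b1 lie to the right in sustentacular cells.

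Genes of the taste-type cascade were called in both directions. Gng13, a G protein gamma subunit, had a lowest, median and highest library level of 1014, 1853 and 2533 CPM in brush-like cells, 21.1 to 265 CPM in ionocyte-like and 49.4 to 245 CPM in sustentacular cells (log2 fold change -4.27 ± 0.25 SE, adjusted p = 2.68e-06, ionocyte-like minus brush-like). Gnat3, gustducin, had a UMI in 45% of brush-like cells and in no ionocyte-like cell (at least 230.3-fold lower there, adjusted p = 0.00319), and Plcb2, the phospholipase of the cascade, in 41.7% and none (at least 154-fold, adjusted p = 0.00875). Of the calcium release channels, Itpr2 was higher in brush-like cells (143 to 444 CPM against 55.6 to 131 CPM, log2 fold change -1.31 ± 0.33 SE, adjusted p = 0.0234), and Itpr3, the form of taste cells, higher in ionocyte-like cells (93.3 to 153 CPM against 0 to 41.7 CPM, log2 fold change 2.51 ± 0.38 SE, adjusted p = 0.0012). Of 10 tested genes 4 were higher in ionocyte-like cells (Itpr3, Gnb1, Gnb3 and Trpm4) and 5 lower, against 6.79% and 5.33% of all tested genes. Their median was -0.30 against 0.18 over all tested genes. Without swap 2 the call of Gnat3 was lost (adjusted p = 0.0595), as it was with DESeq2 (0.232). The calls of Gnb1, Gnb3 and Trpm4 were lost without swap 2 (0.13, 0.158 and 0.177) and without control 2 (0.0805, 0.155 and 0.23), that of Gnb1 under 3 alternatives in all and that of Trpm4 under 6. Without control 2 that of Itpr2 was lost, at a log2 fold change of -0.56 (adjusted p = 0.442).

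Receptors that feed this cascade were hardly seen. The 35 measured bitter taste receptor genes had 0 UMIs in either type, as against 2 UMIs in sustentacular cells. Tas1r3, shared by the sweet and umami receptors, had a UMI in 6.67% of brush-like, 0.41% of ionocyte-like and 0.487% of sustentacular cells. At 518431 brush-like UMIs in all, 0 counts allow up to 5.79 CPM (3 counts), so receptors at low levels were not detectable.

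The eicosanoid genes make leukotrienes and prostaglandins. Of 17 tested, 6 were higher in brush-like cells and 1 in ionocyte-like cells, against 5.33% and 6.79% of all tested genes. Alox5, the 5-lipoxygenase, had a lowest, median and highest library level of 348, 425 and 643 CPM in brush-like and 1.83 to 21.7 CPM in ionocyte-like cells (log2 fold change -4.51 ± 0.41 SE, adjusted p = 4.88e-05), and its helper Alox5ap 461 to 1227 CPM and 0 to 13.7 CPM (log2 fold change -6.61 ± 0.68 SE, adjusted p = 0.000107). Ltc4s, the leukotriene C4 synthase, had a UMI in all 60 brush-like cells, in 7.58% of ionocyte-like and 2.19% of sustentacular cells (log2 fold change -4.88 ± 0.41 SE, adjusted p = 3.39e-05). Ptgs1, the cyclooxygenase, lay at 451 to 1115 CPM against 2.7 to 29.7 CPM (log2 fold change -4.77 ± 0.47 SE, adjusted p = 7.58e-05). The others were the phospholipase Pla2g4a and the prostaglandin D synthase Hpgds. Against sustentacular cells 7 of the 17 were higher and none lower in brush-like cells (median -0.15 against -0.21). Of all tested genes 7.36% were higher and 9.38% lower there. In ionocyte-like cells 6 were higher and 3 lower (median 0.02 against -0.02), against 16% and 18.6% of all tested genes. Alox5, Ltc4s and Hpgds were higher in both types. In ionocyte-like cells the calls of Hpgds and of Alox15, which was lower, were each lost under an alternative (adjusted p up to 0.0517 and 0.258). In brush-like cells the call of Ptgs2, which was higher, was also lost under an alternative.

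The exception was Ptges, the prostaglandin E synthase, with a lowest, median and highest library level of 94.4, 105 and 145 CPM in ionocyte-like cells and no UMI in brush-like cells (at least 19-fold higher, adjusted p = 0.000304). It was higher than in sustentacular cells too (log2 fold change 3.96 ± 0.16 SE, adjusted p = 3.32e-08). The list's median log2 fold change between the types was -0.35 (-0.37 with bounds) against 0.18 over all tested genes. The synthases of prostaglandin D and E were thus higher in opposite types, while Ptges2 and Ptges3 were not called (log2 fold change 0.41 ± 0.46 SE, adjusted p = 0.771 and log2 fold change -0.37 ± 0.22 SE, adjusted p = 0.345).

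Among signals, Il25, a cytokine of tuft cells that acts on innate lymphoid cells, had 3367 CPM in tetOP2, 3374 CPM in gg8tTA, 338 CPM in swap 1, 945 CPM in swap 2, 1792 CPM in control 1 and 2378 CPM in control 2 brush-like cells, the swap libraries being the lowest 2. The 20 brush markers outside the rule, Il25 among them, summed to 6114 and 7611 CPM in swap 1 and swap 2 and 11427 to 12888 CPM elsewhere. Trpm5, which chose the cells, lay at 317 and 479.6 CPM in swap 1 and swap 2 and 558 to 884 CPM elsewhere. A sum weighs deep cells more, and the swap 1 sum held 97645 UMIs over 8 cells with a median of 7367. Of 14 brush markers tested between swap and control in brush-like cells, 0 were called (median log2 fold change -0.72). In ionocyte-like cells the 16 Il25 UMIs were all in 1 cell of control 1 (adjusted p between the types 5.57e-05). Chat, which makes acetylcholine, had a UMI in 25% of brush-like cells, in no ionocyte-like cell and in 0.0271% of sustentacular cells, and was not tested for low counts. The acetylcholine carriers Slc18a3 and Slc5a7 had no UMI in either type. Areg, a growth factor, had 5.48 to 143 CPM in ionocyte-like cells and no brush-like UMI, a call at adjusted p = 0.022. This call was lost without swap 1 (adjusted p = 0.0502), without swap 2 and without control 2. It was also lost under a further alternative (adjusted p = 0.296). Of 9 tested signals these 2 were called, 1 in each direction, against 6.79% higher and 5.33% lower of all tested genes. The median was 1.07 (0.28 with bounds) against 0.18 over all tested genes.

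Of 10 tested genes of the receptor list, 3 were higher in brush-like cells, all of them cytokine receptor genes. Il13ra1 had a lowest, median and highest library level of 153, 308 and 450.3 CPM against 16.2 to 36.6 CPM in ionocyte-like cells (log2 fold change -3.41 ± 0.18 SE, adjusted p = 1.26e-06), Il17rb, a receptor chain for Il25, 23.9 to 153 CPM against 0 to 6.86 CPM (log2 fold change -5.94 ± 0.99 SE, adjusted p = 0.0024), and Il4ra 41.7 to 143 CPM against 2.7 to 14.9 CPM (log2 fold change -2.16 ± 0.50 SE, adjusted p = 0.0162). Without swap 2 the calls of Il17rb and Il4ra were lost. The call of Il4ra was also lost under another alternative, with log2 fold changes of -2.65 to -1.88 over all alternatives. P2ry14 was called in the other direction, 6 were not called, and the median was 0.49 (-1.79 with bounds) against 0.18 over all tested genes. In this comparison 5.33% of all tested genes were higher in brush-like and 6.79% in ionocyte-like cells. Chrm3, a muscarinic receptor, was 6.33 CPM in ionocyte-like and 0.416 CPM in sustentacular cells (log2 fold change 3.46 ± 0.68 SE, adjusted p = 0.00205), with no brush-like UMI. The succinate receptor Sucnr1 and the leukotriene receptor Cysltr2 had no UMI in either type.

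Of 12 tested genes of microvilli and the brush border, 2 were higher and 4 lower in ionocyte-like cells. Over all tested genes 6.79% were higher and 5.33% lower. The list's median was 0.37 against 0.18 over all tested genes. Espn, the actin bundler espin, had a lowest, median and highest library level of 492, 577 and 1099 CPM in brush-like cells and 101 to 191 CPM in ionocyte-like cells (log2 fold change -1.85 ± 0.20 SE, adjusted p = 0.000173), and Krt8, an epithelial keratin, 1974 to 3202 CPM and 1119.7 to 1865 CPM (log2 fold change -0.79 ± 0.18 SE, adjusted p = 0.0146, lost without control 2 at adjusted p = 0.514). Eps8, which caps actin filaments, did not pass between the types (51.2 to 167 CPM and 42.9 to 179 CPM, difference 0.18 ± 0.47) and was above sustentacular cells in both (3.48 ± 0.26 and 3.30 ± 0.53), the second call being lost without control 2 (adjusted p = 0.13). Villin, Vil1, was near 0 at 3.69 CPM and 1.93 CPM.

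Of the 10 genes a direction with the smallest adjusted p, those higher in ionocyte-like cells were Sgk1, Galnt13, Cox8b, Scnn1a, Atp7a, Sult1c1, Wfdc2, Cds1, Slc12a2 and Aplp2. Galnt13, a mucin-type glycosyltransferase, had a lowest, median and highest library level of 283, 379.7 and 791 CPM and no brush-like UMI (adjusted p = 2.82e-06). Atp7a, the copper-exporting ATPase, lay at 349.7 to 796 CPM against 0 to 47.8 CPM in brush-like and 10 to 15.4 CPM in sustentacular cells (log2 fold change 5.11 ± 0.33 SE, adjusted p = 5.08e-06). Sult1c1, a sulfotransferase, lay at 558 to 1029 CPM against 0 to 98.6 CPM, and was higher still in sustentacular cells (1924 to 3117 CPM).

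Those higher in brush-like cells were Bpgm, Plk2, Fyb, Nrgn, Ptpn18, Adgrg6, Cadps2, Pla2g7, Anxa4 and Il13ra1. Bpgm, which makes 2,3-bisphosphoglycerate, had a lowest, median and highest library level of 604, 981 and 1314 CPM against 33 to 62.2 CPM (log2 fold change -4.65 ± 0.15 SE, adjusted p = 5.42e-08). Adgrg6, an adhesion receptor, lay at 973 to 3320.1 CPM against 2.87 to 26.3 CPM (log2 fold change -7.93 ± 0.36 SE, adjusted p = 4.23e-07), and Nrgn, neurogranin, a calmodulin-binding protein, at 461 to 1195 CPM against 0 to 0.569 CPM (adjusted p = 4.23e-07). Cadps2 primes the release of dense-core vesicles and lay at 195 to 684 CPM against 21.9 to 50.7 CPM (log2 fold change -3.50 ± 0.17 SE, adjusted p = 7.5e-07). For each of these 4 genes the libraries did not overlap.

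Against sustentacular cells, ionocyte-like cells were higher at 1835 genes (16%) and lower at 2133 (18.6%) of 11466. Among the smallest adjusted p in the upward direction were those of Galnt13, Moxd1, Plcg2, Pam, Atp7a, P2ry14, Foxi2 and Adgrb1. Foxi2, a forkhead paralog of Foxi1, had a lowest, median and highest library level of 87.8, 136 and 221 CPM and 0 to 0.18 CPM in sustentacular cells (log2 fold change 10.38 ± 0.25 SE, adjusted p = 1.78e-09). Pam, a copper-dependent enzyme that amidates peptides, lay at 800.5 to 1450.3 CPM against 3.08 to 7.88 CPM (log2 fold change 7.67 ± 0.20 SE, adjusted p = 1.06e-09). Plcg2, a phospholipase of immune receptors, lay at 109 to 210.4 CPM in ionocyte-like, 71.7 to 203 CPM in brush-like and 0.646 to 1.82 CPM in sustentacular cells (6.83 ± 0.17 and 6.37 ± 0.33 against sustentacular cells). The downward genes were Gldn, Mapt, Sord, Adam28, Prss36, Upb1, Pip4k2a, Gstm1, Cadm1 and Ugdh, among them the glutathione transferase Gstm1 (215 to 477 CPM against 3440.3 to 12427 CPM, log2 fold change -4.52 ± 0.18 SE, adjusted p = 1.65e-08).

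Brush-like cells were higher than sustentacular cells at 844 genes (7.36%) and lower at 1075 (9.38%), while DESeq2 gave 1017 higher and 861 lower. The total of 1919 fell to 1094 without swap 2 and 780 without control 2. The upward genes of smallest adjusted p were Bpgm, Nrgn, Fyb, Anxa4, Hepacam2, Adgrg6, Avil, Pla2g7, Cadps2 and Calm2. Calm2, a calmodulin gene, had a lowest, median and highest library level of 2028, 2647 and 3111 CPM against 445 to 560.2 CPM (log2 fold change 2.38 ± 0.12 SE, adjusted p = 5.43e-07). The downward genes were Sult1c1, Csrp2, Atox1, Ephx1, Tyro3, Pgrmc1, Gstm1, Hspb1, Cd81 and Gldn. Csrp2, a LIM protein, lay at 0 to 129 CPM against 794 to 1031 CPM (log2 fold change -5.62 ± 0.26 SE, adjusted p = 3.37e-07).

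Of the 9 tested sustentacular markers, all 9 were lower in ionocyte-like and in brush-like cells, against 18.6% and 9.38% of all tested genes. Medians were -4.59 against -0.02 over all tested genes and -6.41 (-6.07 with bounds) against -0.21 over all tested genes. In brush-like cells the calls of Cyp1a2, Cyp2f2 and Aldh1a7 were lost without swap 2 (adjusted p = 0.0554, 0.138 and 0.163) and those of Aldh1a7 and Ugt2a1 without control 2 (0.112 and 0.0511), and in ionocyte-like cells that of Cyp2f2 was lost under 5 alternatives, leaving out tetOP2 among them (0.11), all with the direction kept. Cyp2a5, for example, had a lowest, median and highest library level of 9368, 14126 and 16350.1 CPM in sustentacular and 41.2 to 1045 CPM in ionocyte-like cells (log2 fold change -6.10 ± 0.72 SE, adjusted p = 3.94e-05). The members were limited in Cyp2g1 and Sec14l3, so low sustentacular genes follow in part from the choice of cells. These counts describe the classes and support nothing further.

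Genes of other cell types were followed as summed levels of marker lists. Mature neuron markers stood at 28.1 CPM in ionocyte-like cells (10.5 to 93.2 by library, Gnal the most abundant, none of 7 at 0), 52.1 in brush-like cells (21.4 to 307, Gnal, 2 of 7 at 0) and 47.8 in sustentacular cells. Sustentacular markers stood at 2681 CPM in ionocyte-like cells (1106 to 4147 CPM, Cyp2f2 the most abundant), 403 CPM in brush-like cells (119 to 563 CPM, Cbr2) and 29280.3 CPM in their own class. Macrophage markers were 175 CPM in ionocyte-like cells (14.9 to 623 CPM, Lyz2) and 5.79 in brush-like cells, where C1qa, C1qb, C1qc, Cx3cr1 and Csf1r were at 0. Mast cell and basophil markers were 4.4 and 1.93 CPM, with Cpa3, Tpsb2, Ms4a2 and Fcer1a at 0 in both types.

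Other lists were uneven over libraries. Secretory respiratory markers ranged from 69.8 to 58292 CPM in ionocyte-like cells, with Reg3g the most abundant, and from 69.5 to 1536 CPM in brush-like cells. Neutrophil markers ranged from 40 to 3491 CPM in ionocyte-like cells, Ltf making 93% of them. Horizontal basal markers ranged from 51.2 to 1101 CPM (Krt15), fibroblast markers from 22 to 1369.5 CPM (Dcn), erythroid markers from 1.83 to 349 CPM (Alas2), ciliated cell markers from 6.83 to 295 CPM (Tmem212), ensheathing glia markers from 13.4 to 111 CPM (Fabp7) and endothelial markers from 0 to 5.72 CPM (Cldn5), all in ionocyte-like cells. In brush-like cells the highest library was 38.3 CPM for horizontal basal, 307 for fibroblast, 76.7 for erythroid, 71.7 for ciliated, 214 for ensheathing glia and 21.4 for endothelial markers. The part these RNAs play in the comparisons was not tested.

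Single genes led some of these lists. B cell markers reached 108 CPM in brush-like cells through Cd79b, which had a UMI in 55% of them, while Ms4a1 was at 0. Cd79b was higher in brush-like than in ionocyte-like cells (adjusted p = 0.0177), a call lost without swap 2 (0.179). Bowman gland markers were led by Galnt13 in ionocyte-like cells (53.3% of 982 CPM) and by Sox9 in brush-like cells (97.2% of 841 CPM). Sox9, a transcription factor of gland and progenitor cells, had a lowest, median and highest library level of 369, 663 and 1361 CPM in brush-like and 88.1 to 189 CPM in ionocyte-like cells (log2 fold change -2.49 ± 0.23 SE, adjusted p = 5.41e-05). It had a UMI in 24.1% of the ionocyte-like cells with an Ascl3 UMI and in 71.4% of those without. Kit, the stem cell factor receptor and a globose basal marker, lay at 73.8 to 208 CPM and 42.9 to 172 CPM in the types (log2 fold change 0.28 ± 0.38 SE, adjusted p = 0.716) and 3.58 to 18.8 CPM in sustentacular cells. Vomeronasal markers were led by Gnai2 in all 3 classes, immature neuron markers by Stmn1 and globose basal markers by Hes6.

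The swap was read first at the HP1 genes. In ionocyte-like cells Cbx1 had 2 UMIs in swap 1 and 6 in swap 2, against 97 in control 1, 61 in control 2, 26 in tetOP2 and 23 in gg8tTA. This was 2.67 ± 1.06 CPM in swap and 79.3 ± 13.4 CPM in control (SD, n = 2), a log2 fold change of -4.67 ± 0.48 (SE, edgeR adjusted p = 0.0406). In brush-like cells it had 0 UMIs in both swap libraries, and 4 and 13 in the controls, which makes it at least 6.7-fold lower (3 counts over the swap libraries), too few to be tested. Sustentacular cells had 1.1 ± 0.563 and 49.3 ± 21.2 CPM (SD, n = 2). Cbx1 lies at chr11:96789127-96808640 on GRCm38, and the engineered allele loses its Cbx1 coding sequence on recombination.

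Cbx5, whose coding sequence the allele carries, was not called. In ionocyte-like cells it stood at 138 ± 42.2 CPM in swap and 114 ± 40.9 CPM in control (0.42 ± 0.35, adjusted p = 0.999), and in brush-like cells at 324 ± 240.3 and 272 ± 88.4 CPM (0.49 ± 0.56, adjusted p = 0.933; SDs are over n = 2). Cbx3, the gene of HP1γ, gave -0.18 ± 0.32 and 0.42 ± 0.42. Whether reads of the inserted sequence were counted to Cbx5, Cbx1 or neither is not given in the sources used here. In the fit of the types, whose brush-like sums came from swap 2 and control 2, Cbx5 was lower in ionocyte-like cells (adjusted p = 0.0117), a call lost without swap 2 (adjusted p = 0.396). It was 48.5 CPM in ionocyte-like and 21.4 CPM in brush-like cells of tetOP2, and 65.8 and 38.3 CPM in gg8tTA, with 1 brush-like UMI in each.

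**Figure D5:**
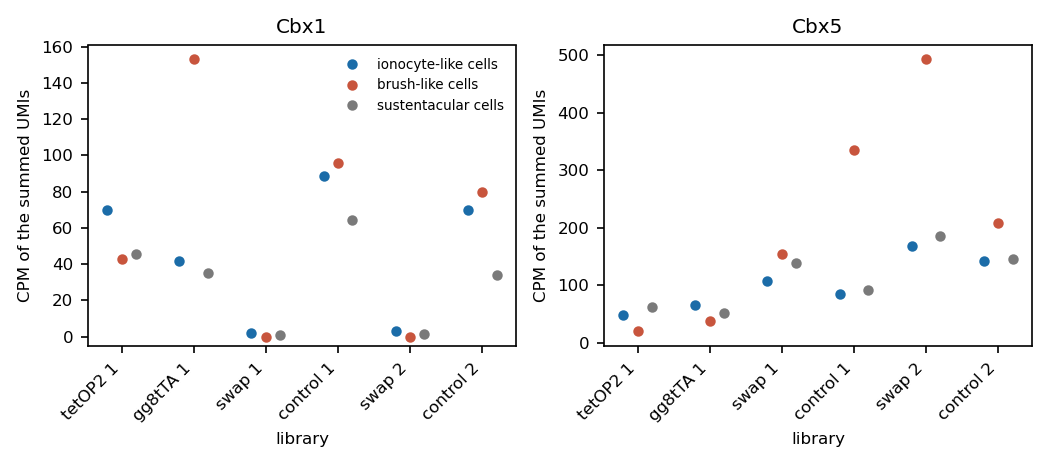
Points give Cbx1 (left) and Cbx5 (right) levels in CPM (vertical axes) in each library (horizontal axis) for 3 cell classes. Cbx1 lies at or near 0 in all classes of the swap libraries, whereas the Cbx5 points of swap and control libraries overlap.

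Beyond Cbx1, few genes passed between swap and control. In ionocyte-like cells 2 of 8971 tested genes were called (0.0223%), Cbx1 and Lcn2, with 222 at an unadjusted p below 0.05. Lcn2, an iron-binding secreted protein, had 915 UMIs in swap 1, 2911 in swap 2, 7 in control 1 and 3 in control 2 (log2 fold change 8.05 ± 0.62 SE, adjusted p = 0.00933). The UMIs were held by 39 ionocyte-like cells, with 2028 of 3866 in a single cell of swap 2. Sustentacular cells had 752 and 1179.6 CPM in swap against 104 and 115 CPM in control. Summed secretory respiratory markers were 58292 and 6604 CPM in swap 1 and swap 2 ionocyte-like cells, against 218 and 69.8 CPM in control 1 and control 2. Lcn2 had a UMI in 36.7% of ionocyte-like cells without an Ascl3 UMI and in 4.78% of those with one. It stood at 1400.3 CPM in the first and 488 CPM in the second, and its call held for cells with an Ascl3 UMI. Its call was lost with a minimum of 3 UMIs (adjusted p = 0.0536), and the count of called genes was 19 by DESeq2, 33 for cells with an Ascl3 UMI, and 11 to 97 when 1 library was left out. With no filter on low counts 251 genes were called, and with a replicate block 42. In the swap comparisons of either type, leaving out 1 library leaves 1 in its group, which is then assumed to vary like the 2 of the other group.

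No gene of the ionocyte, transport or V-ATPase lists was among the calls. Foxi1 stood at 332 and 556 CPM in swap and 317 and 613 CPM in control. Scnn1b stood at 227 and 316 against 209.5 and 316 CPM. With 2 libraries a group, these calls do not show that the genes were alike.

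In brush-like cells 1 of 2371 tested genes was called (0.0422%), with 154 at an unadjusted p below 0.05. It was the histone gene Hist1h1b, with 36 and 47 UMIs in swap 1 and swap 2 and 0 and 1 in control 1 and control 2 (log2 fold change 5.96 ± 0.71 SE, adjusted p = 0.0236). Of its 84 brush-like UMIs, 82 lay in 2 cells, 1 in each swap library, and the same number of cells held all 54 UMIs of the proliferation marker Mki67. By edgeR 0 genes were called without cells that had Mki67 UMIs (36 at an unadjusted p below 0.05) and 0 without control 1 or control 2 (109 and 139), while 21 were without swap 1 and 92 without swap 2. DESeq2 called 5 with all libraries and cells. These brush-like sums rest on 7 to 20 cells each. The study counts its libraries as biological replicates. The p-values rest on the spread between 2 libraries a group, with variance shared across genes by edgeR.

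The swap effect was compared between the types in one model with library as a block. It differed at 63 of 8386 tested genes (0.751%), 23 higher and 40 lower in ionocyte-like cells. Toward ionocyte-like cells the smallest adjusted p belonged to Chil1, Cyp2a5, Bpifa1, Reg3g and Lypd2, and toward brush-like cells to Hist1h1b, Cenpf, Top2a, Ccnd1 and Mki67. Reg3g, for example, had 38833 and 5598 UMIs in swap 1 and swap 2 ionocyte-like cells and 212 and 12 in the controls, 5 cells holding 80.1% of all its UMIs there (difference of effects 5.73 ± 0.56 SE on the log2 scale, adjusted p = 4.22e-12). Its level in swap 1 and swap 2 was 37202 and 3188 CPM in ionocyte-like cells, and 1464 and 6.95 CPM in brush-like cells. The SE and p rest in part on variance that edgeR shares across genes, and do not show this spread between libraries. Without cells that had Mki67 UMIs 21 genes were called, for cells with an Ascl3 UMI 104, without swap 1 21, and without control 2 21.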

How the data were processed

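Per the labels and the study's methods, MOE was dissociated with papain, strained and run on 10X Chromium v3 (the series' description adds a sort, which the study's single-cell methods do not mention), and reads were counted with Cell Ranger, introns included, on mm10 (the submitters' processing notes). The authors deposited a matrix of raw UMI counts per gene and cell barcode for each of 6 libraries, with gene symbols only. Total UMIs were 32005196 (tetOP2), 35298494 (gg8tTA), 63277934 (swap 1), 60729307 (swap 2), 58498968 (control 1) and 59045808 (control 2).

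Counts were summed per library and class. Sums were compared in R 4.3.3 with edgeR 4.0.16 (quasi-likelihood test, TMM scaling, filterByExpr). For the types all 3 classes were fitted with library as a block, using sums of at least 10 cells. For swap against control the swap and control libraries were used, without a block and with brush-like sums of any size. Genes were called at an adjusted p (Benjamini-Hochberg over all tested genes) below 0.05 and an absolute log2 fold change over 0.58. The 7 genes of the rule counted toward library sizes and were not tested. DESeq2 1.42.0, other filters and scalings, other member rules, leaving out single libraries and a replicate block were alternatives. Doublets were predicted by simulated neighbours (875 cells, 3.52%, 5 of them ionocyte-like and 0 brush-like) and kept.

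The fits were checked on simulated counts with 200 changed genes each. Between the types 90 were recovered, for swap 128 in ionocyte-like and 114 in brush-like cells, and for the difference of effects 40. False calls numbered 2, 7, 2 and 0 in this order. A gene that was not called may thus still differ. The SE of a fold change was taken from the size of the fold change and its F statistic. Members and lists were chosen with earlier results of these data known. Genes named were those of the lists, Cbx1 and Cbx5, the 10 per direction of smallest adjusted p with the same sign in every library entered (5 for the swap tests, Gm and Rik names left out throughout). Xist, Ddx3y, Lcn2 among sustentacular cells and the genes of the other observations were chosen after their values were seen. Part of the genotype labels and some genes that met these rules are not reported here.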

Additional observations from a re-analysis of the deposited data

Results flagged for a closer look

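The swap effect differed between ionocyte-like and brush-like cells (a test of the difference itself, edgeR with library as a block) at 12 named genes. Of these, 1, Chil1, kept the call under every alternative tried. Larger effects in ionocyte-like cells were named for 5 genes, while of the marker lists 1 of 9 tested sustentacular and 2 of 3 tested secretory respiratory markers were called, against 0.751% of all 8386 tested genes. The difference of log2 effects was 6.97 for Bpifa1, an airway secretory protein, with 20544 and 5894 UMIs in swap 1 and swap 2 ionocyte-like cells against 26 and 49 in control 1 and control 2, and 6, 9, 0 and 10 in brush-like cells. It was 5.73 for Reg3g, 4.83 for Cyp2a5, 4.6 for the chitinase-like Chil1 and 3.37 for Lypd2. Chil1 had a UMI in 51 of the 60 brush-like cells. It lay there at 81.9 and 361 CPM in swap 1 and swap 2 (8 and 52 UMIs) and 502 and 609.8 CPM in control 1 and control 2 (21 and 99 UMIs). Its brush-like levels were thus lower in both swap libraries. The summed 20 brush markers outside the rule were lower there too (6114 and 7611 CPM against 12089.9 and 12295 CPM in control 1 and control 2). So was Trpm5, which chose the cells (317 and 479.6 CPM against 884 and 819 CPM). The part of a few deep cells in these lower levels was not tested. In ionocyte-like cells Chil1 stood at 579.6 and 226 CPM in swap and 11 and 66.3 CPM in control. The 5 cells richest in Bpifa1 held 90.5% of its ionocyte-like UMIs, those in Reg3g 80.1%, in Cyp2a5 76.2% and in Chil1 72.9%, all of them from swap libraries. In the 49 ionocyte-like cells without an Ascl3 UMI Reg3g stood at 30517 CPM and Bpifa1 at 17294 CPM, against 1836 and 1365 CPM in the 439 with one. Without control 2 the calls of Bpifa1, Cyp2a5 and Lypd2 were lost (adjusted p = 1, 0.687 and 0.286), and that of Reg3g was lost with DESeq2 (0.0975) and with a minimum of 3 UMIs (0.205).

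The difference was below 0 at -10.68 for Cenpf, -10.32 for Mki67, -9.96 for Ccnd1, -6.49 for Hist1h1b and -4.45 for Top2a. In brush-like cells Mki67 had 25 and 29 UMIs in swap 1 and swap 2, in 2 cells, and 0 in both controls. Cenpf and Ccnd1 also had 0 in both controls, so the fitted values of Mki67, Cenpf and Ccnd1 depend on the prior count. Hist1h1b had 0 and 1 and Top2a 2 and 2 brush-like UMIs in control 1 and control 2. In ionocyte-like cells Mki67 had 72 and 103 UMIs in swap and 33 and 87 in control. Without control 2 the calls of Hist1h1b, Cenpf, Top2a and Mki67 were lost (adjusted p = 0.777, 0.384, 0.87 and 0.435), that of Top2a also with DESeq2 (0.276), and those of Ccnd1 and Top2a without cells with Mki67 UMIs (adjusted p = 1 for both), where Top2a turned to 0.19 and Cenpf, Hist1h1b and Mki67 had too few counts to be tested. Stmn1, a tubulin regulator of dividing cells and young neurons, gave -1.5, with 77 and 115 brush-like UMIs in swap and 7 and 56 in control. A single cell held 34.7% of its brush-like UMIs. In ionocyte-like cells Stmn1 had 804 and 2123 UMIs in swap and 964 and 806 in control. Il25 gave -3.99, with 33 and 136 brush-like UMIs in swap and 75 and 386 in control, and in ionocyte-like cells 0 in swap and 16 and 0 in control. Without control 1 Il25 turned to 1.61 (adjusted p = 1), and without cells with Mki67 UMIs Stmn1 turned to 1.33 (adjusted p = 0.847). With DESeq2 neither Il25 nor Stmn1 was called (adjusted p = 1 for both). The part of single cells in these differences was not tested beyond leaving out cells with Mki67 UMIs, after which 21 genes were called in place of 63.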

How the results depend on the processing

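Of the named and listed genes called between the types, 58 of 83 kept their call under every alternative, as did 110 of 141 for ionocyte-like and 57 of 94 for brush-like against sustentacular cells and 1 of 12 for the difference of swap effects. Depth limits brush-like cells most, since 3 counts over all 60 are 5.79 CPM. Leaving out 1 library at a time, the swap minus control share ranged from -0.191 (without swap 2) to 0.838 (without swap 1) percentage points for ionocyte-like and from -0.24 (without control 1) to 0.0738 (without control 2) for brush-like cells. Called genes then ranged from 578 (without control 2) to 1375 between the types, from 780 (without control 2) to 1993 for brush-like and from 3621 to 3934 for ionocyte-like against sustentacular cells, from 11 (without control 1) to 97 (without swap 2) for swap in ionocyte-like cells, from 0 (without control 1 or control 2) to 92 (without swap 2) in brush-like cells, and from 21 (without swap 1 or control 2) to 82 (without control 1) for the difference of effects. For swap in ionocyte-like cells the count was 2 and became 19 with DESeq2, 251 with no filter on low counts, 4 with a minimum of 3 UMIs and 33 for cells with an Ascl3 UMI. In brush-like cells it was 1 and became 5 with DESeq2, 69 with no filter, and 0 with 3 UMIs (29 at an unadjusted p below 0.05) or without cells with Mki67 UMIs (36), as against 109 and 139 without control 1 and control 2. For the difference of effects 63 became 12 with DESeq2, 15 with 3 UMIs, 104 with an Ascl3 UMI and 21 without Mki67. Sums of under 10 cells, included after seeing the data, gave 1894, 3237 and 2551 calls for the 3 class contrasts. A replicate block gave 42 calls for swap in ionocyte-like and 34 in brush-like cells, where swap and control share only a number (correlation of deviations 0.3424), and no replicate block gave 1403, 3515 and 1987 for the classes. Against sustentacular cells, Krt14 in ionocyte-like cells turned to -0.85 (3 UMIs), -0.07 (2 other markers) and -0.75 (Ascl3 UMI), Fxyd3 to -0.12 (Ascl3 UMI), and Il25 ranged from -2.93 (without control 1) to 4.27, while Dll1 in brush-like cells ranged from -5.04 (without control 2) to 6.4. Top2a turned to 0.19 and Stmn1 to 1.33 in the difference of effects without Mki67. In the same comparison, leaving out 1 library at a time, Il25 ranged from -5.38 (without control 2) to 1.61 (without control 1). The causes were not tested.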

Other observations

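Genes of copper handling were looked at after Atp7a and Pam had been seen among the leading ionocyte-like genes, so the choice was made after seeing values. In ionocyte-like cells the copper importer Slc31a1 lay at 295 to 522 CPM by library, against 23.9 to 115 CPM in brush-like and 236 to 346 CPM in sustentacular cells. Its relative Slc31a2 lay at 333 to 520.5 CPM, 0 to 76.7 CPM and 19.9 to 41.1 CPM. The copper chaperone Atox1 lay at 825 to 1187 CPM, 263 to 575 CPM and 2129 to 2869 CPM, and the chaperone Ccs at 35.1 to 82.3 CPM, 21.4 to 119 CPM and 108 to 143 CPM. Sod1, the copper-zinc superoxide dismutase, lay at 111 to 270.5 CPM, 64.3 to 271 CPM and 314 to 1087 CPM, the metallothionein genes Mt1 at 266 to 1866 CPM, 153 to 911 CPM and 1444 to 2735 CPM and Mt2 at 78.9 to 760.5 CPM, 38.3 to 386 CPM and 431 to 1436 CPM, and ceruloplasmin, Cp, at 1.14 to 239.5 CPM, 0 to 38.3 CPM and 4.3 to 47.2 CPM. Of these 10 genes with Atp7a and Pam, ionocyte-like cells were called higher than sustentacular cells at Atp7a, Pam, Slc31a2 and Cp and lower at Atox1, Ccs, Sod1, Mt1 and Mt2, and Slc31a1 was not called (edgeR adjusted p = 0.0738). Of all tested genes 16% were higher and 18.6% lower in this comparison. The tally counts Atp7a and Pam, which prompted the choice, and is no test. Cp had a UMI in 5.12% of ionocyte-like and 4.09% of sustentacular cells and its library levels overlapped, whereas Atp7a had one in 87.9% of ionocyte-like cells and Pam in 90.8%.

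Other genes seen in the same way were Kitl, the ligand of Kit, at 76.8 to 446 CPM in ionocyte-like, 0 to 34.8 CPM in brush-like and 35.1 to 168 CPM in sustentacular cells, the homeobox gene Prox1 at 21.9 to 109 CPM, 0 to 76.5 CPM and 0.0782 to 0.869 CPM, and the potassium channel gene Kcnk5 at 41.2 to 80.9 CPM, 0 to 38.3 CPM and 2.77 to 5.13 CPM. These 3 are given as values, with no test.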
